A study of Mus musculus with 8 samples.

Results

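The genes described here are the mouse mitochondrial ribosomal protein genes, taken as every gene whose symbol starts with Mrpl or Mrps in RNA-seq count tables of T helper 17 (Th17) cells. There were 76 of them among the 13704 genes listed. Membership went by symbol alone, though earlier results of these data were known when the group was chosen. All 76 had reads in both libraries and passed the filter for testing, 10 or more reads in both libraries together, as did 10881 genes in all. The WT library came from C57BL/6 wild type cells. The KO library came from TRIM28fl/flxCD4cre cells of the same strain, in which a Cre recombinase under the Cd4 promoter removes Trim28, a nuclear cofactor of transcription, in T cells. Naive CD4+ T cells of both genotypes were kept under Th17 conditions for 3 days, with TGF-β at 0.5 ng/ml and IL-6 at 20 ng/ml. They were then stimulated again through CD3, and 1 library per genotype was sequenced from their mRNA. There was no replicate check, so every test below compares the reads of these 2 libraries and not the genotypes.

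The mitochondrial ribosome translates the few proteins that the mitochondrial genome encodes, all of them parts of the respiratory chain and of ATP synthase. Its RNAs come from mitochondrial DNA, but its proteins are encoded in the nucleus, made in the cytosol and imported. It has a large subunit, which joins amino acids, and a small subunit, which reads the mRNA. Part of its proteins have counterparts in bacterial ribosomes and the rest were gained in the lineage of mitochondria. T cells enlarge their mitochondria when they are activated, and mitochondrial translation is known to contribute to this growth.

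The WT library held 6650066 reads on genes and the KO library 6185108. Trim28 itself had 4485 reads in WT and 180 in KO, a log2 fold change of -4.53 (95% interval -4.76 to -4.32). All 9 markers of CD4 T cells and Th17 cells were listed, and their summed level was 4356 CPM (reads per 1000000 reads of the library) in WT and 3460 in KO. The 2 Th17 cytokine genes Il17a and Il17f had 2226 and 3143 reads in WT and 381 and 345 in KO. B cell markers summed to 12.5 CPM in WT and 7.11 in KO, markers of macrophages to 3.46 and 2.75, and markers of CD8 T and NK cells to 7.97 and 4.69. None of the markers of granulocytes or red cells was listed. In bulk RNA of this kind, a change in the make-up of the culture and a change of RNA within each cell cannot be told apart.

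Taken as counted, the mitochondrial ribosomal protein genes were mostly higher in the KO library, by a small amount. Their reads summed to 21426 in WT and 25291 in KO, or 3222 and 4089 CPM, a 1.27-fold higher level in KO. On the log2 scale this was 0.34, with a 95% interval of 0.32 to 0.37. The log2 fold change was positive for 69 of the 76 genes (90.8%) and negative for 7, while it was positive for 48.6% of all tested genes. The median over the 76 was 0.34, against -0.02 over all tested genes, and the single genes ranged from -0.16 for Mrps33 to 0.95 for Mrps36. Intervals here are exact 95% binomial intervals (Clopper-Pearson) and cover counting error only, since there was 1 library per genotype. PCR copies were not told apart, so the intervals may be too narrow even for counting error.

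No member passed the limits of the study, which asked for a 2-fold change at a false discovery rate under 0.05. Of all tested genes, 2.57% passed them as higher in KO and 5.53% as lower. At a lower limit, where the higher of both levels exceeded the other by at least 25%, 40 members (52.6%) were called higher and 0 lower, beside 15.7% and 18.2% of all tested genes. By intervals alone, 49 members lay above 0, 27 included 0 and 0 lay below. The shares of all tested genes were 23.5% above 0 and 24.9977% below. By counting error alone, the members were not all at the same fold. The interval of 13 members lay wholly above the fold of the summed reads and that of 12 wholly below it. Variation between replicates, which these intervals leave out, could not be measured, and the same count was not made over all tested genes.

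**Figure D1:**
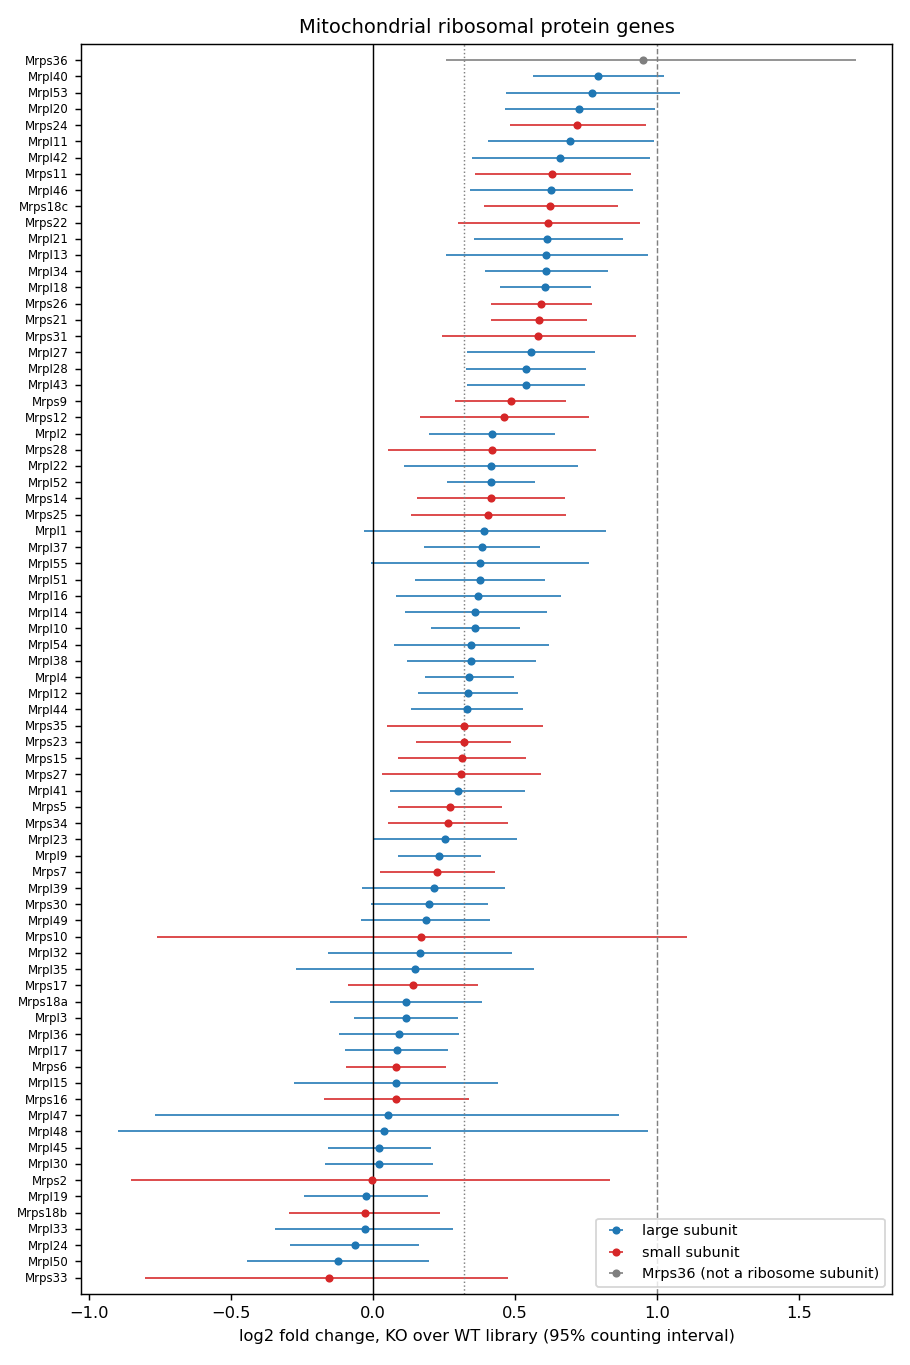
Log2 fold change of each of the 76 genes in the KO over the WT library, sorted, with 95% counting intervals as bars. Blue is the large subunit, red the small subunit and grey Mrps36. The solid line is no change, the dotted line the 25% limit and the dashed line 2-fold. From -0.16 for Mrps33 to 0.95 for Mrps36, no point reaches the dashed line, and 69 points lie to the right of the solid line.

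These values moved with the length of the mRNA, in all genes and not in the members alone. Over 10822 tested genes with a curated RefSeq mRNA, the log2 fold change and the length had a Spearman rho of -0.40, shorter mRNAs being higher in the KO library. The 76 members had a median mRNA length of 1066 bases, against 2905.5 bases for all tested genes, and a rho of -0.28 among themselves. Among genes with an mRNA under 1000 bases, 18 of 30 members (60%) were called higher at the 25% limit and 36.2% of 727 tested genes were, with medians of 0.39 and 0.30. From 1000 to 2000 bases, 19 of 31 members (61.3%) and 26.7% of 2419 tested genes were called, with medians of 0.36 and 0.21. At 2000 bases or more, 3 of 15 members (20%) and 10.4% of 7676 tested genes were called, with medians of 0.12 and -0.12.

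With the trend against the longest curated RefSeq mRNA taken off, the median of the members was 0.14. Then 58 of 76 were positive, beside 5457 of 10822 tested genes. At the 25% limit 11 (14.5%) were called higher and 1 lower. This share is near that of all tested genes under the same correction, 13.5% higher and 13.2% lower. With the trend against the longest GENCODE transcript, which is longer for many members, the median was 0.20, 63 were positive, and 22 (28.9%) were called higher and 0 lower, beside 14.5% and 13.4% of tested genes. Of the 11 genes called higher after the RefSeq correction, 10 were also called as counted. These were Mrpl40, Mrpl53, Mrpl20, Mrps24, Mrpl11, Mrps11, Mrpl46, Mrpl21, Mrpl18 and Mrps25. The other was Mrpl17, with 508 reads in WT and 501 in KO, and the 1 called lower was Mrpl24. What makes short mRNAs differ between these libraries was not tested.

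**Figure D2:**
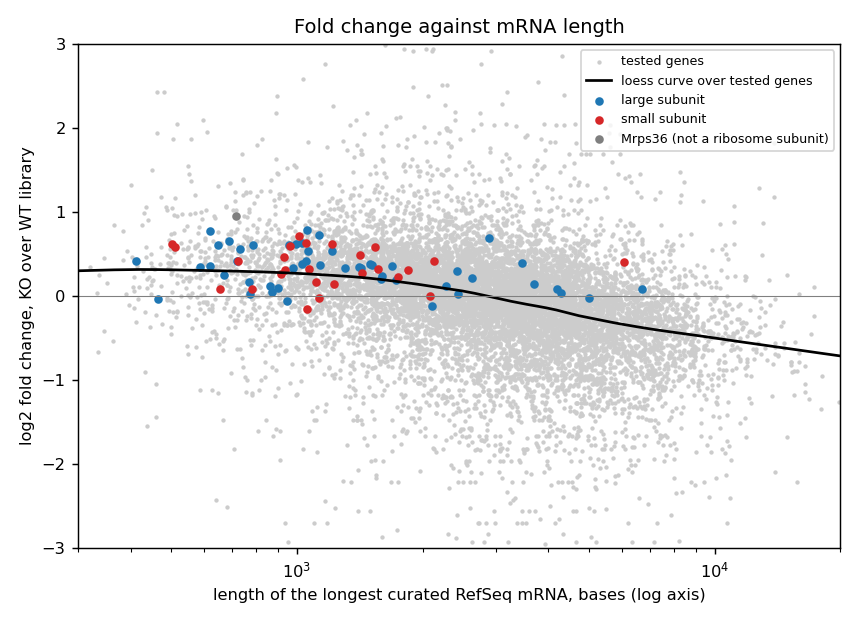
Log2 fold change in the KO over the WT library against the length of the longest curated RefSeq mRNA in bases, on a log axis, for all tested genes (light grey) and the members (blue large subunit, red small subunit, dark grey Mrps36). The black line is the loess curve over tested genes, and 58 of the 76 members lie above it.

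The large subunit accounted for 49 of the genes, among them Mrps18a and Mrps30, whose proteins sit in the large subunit despite their names. Their reads summed to 14475 in WT and 16913 in KO, a log2 fold change of the sum of 0.33 (0.30 to 0.36), with a median over genes of 0.35 and 26 genes called higher. The small subunit's 26 genes summed to 6924 and 8329 reads, a log2 fold change of the sum of 0.37 (0.32 to 0.42), with a median of 0.32 and 13 called higher. The intervals of both sums overlapped. A division by origin was made from general knowledge and may misplace single genes. By it, 46 genes had a bacterial counterpart, with a median of 0.35 and 23 called higher. As particular to mitochondria 29 were taken, Mrps18a and Mrps18b among them, with a median of 0.33 and 16 called higher. Each of these groups had 0 called lower, and 15.7% of all tested genes were called higher and 18.2% lower. After the RefSeq length correction the medians were 0.15 for the large subunit and 0.12 for the small one. Then 8 and 3 genes were called higher, and 1 gene of the large subunit lower. By origin, 7 with a bacterial counterpart and 4 particular to mitochondria were called higher. Of all tested genes, 13.5% were called higher and 13.2% lower with this correction.

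In the large subunit, Mrpl40 had the largest change among the genes with at least 50 reads. It had 252 reads in WT and 406 in KO, a log2 fold change of 0.79 (0.56 to 1.03, adjusted p = 3.94e-11 by the exact binomial test, Benjamini-Hochberg adjusted), and 0.53 after the RefSeq length correction. Mrpl40 lies on the minus strand at chr16:18872018-18876637 of GRCm38. Mrpl53, another protein particular to mitochondria, had 146 reads in WT and 232 in KO (0.77, 0.47 to 1.08). Its exons overlap those of Ccdc142 in the annotation. In all, 19 members had exons that overlap another gene, among them Mrpl18, Mrpl21, Mrpl24 and Mrps25. Whether the counting used strand is not given in the sources used here. Mrpl20, counterpart of a bacterial protein needed early in assembly of the large subunit, had 200 reads in WT and 308 in KO (0.73, 0.47 to 0.99). Mrpl42 had 145 and 213 reads (0.66, 0.35 to 0.97).

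The stalk of the large subunit, which recruits the GTPases of translation, is built on Mrpl10, Mrpl11 and Mrpl12. Mrpl11 had 164 reads in WT and 247 in KO (0.69, 0.40 to 0.99), and it kept 0.70 after the RefSeq length correction since its longest curated mRNA is about as long as that of the median tested gene. Mrpl10 had 617 reads in WT and 737 in KO (0.36, 0.20 to 0.52). Mrpl12, which also binds the mitochondrial RNA polymerase, had 487 and 571 reads (0.33, 0.16 to 0.51). All 3 were called higher as counted, and Mrpl11 was the one of them called after the correction.

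At the exit of the peptide tunnel, Mrpl24 had 345 reads in WT and 307 in KO (-0.06, -0.29 to 0.16), Mrpl23 had 247 and 274 (0.25, 0.00 to 0.51), and Mrpl45, which ties the ribosome to the inner membrane, had 510 and 482 (0.02, -0.16 to 0.21). None of these passed the limits as counted, and Mrpl24 was called lower after the RefSeq length correction at -0.34. Mrpl4 and Mrpl22, whose bacterial counterparts line the tunnel itself, had 619 and 162 reads in WT and 728 and 201 in KO (0.34, 0.18 to 0.50, and 0.41, 0.11 to 0.72). Both were called higher as counted. After the RefSeq length correction Mrpl4 was at 0.10 and Mrpl22 at 0.12, and neither was called.

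The large subunit genes with the most reads were Mrpl9, Mrpl52, Mrpl10, Mrpl4 and Mrpl18. Mrpl9 had 736 reads in WT and 805 in KO (0.23, 0.09 to 0.38), an interval above 0 but under the 25% limit. Mrpl52 had 625 and 775 reads (0.41, 0.26 to 0.57). Mrpl18, counterpart of the bacterial protein that binds 5S RNA, had 547 and 775 reads (0.61, 0.45 to 0.77), and it shares exonic sequence with Tcp1 in the annotation. 

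Among the genes with at least 50 reads, the log2 fold change was negative in only 5, and the intervals of those 5 included 0. They were Mrpl50, with 179 reads in WT and 153 in KO (-0.12, -0.44 to 0.20), Mrpl24, given above, Mrpl33, with 180 and 164 (-0.03, -0.34 to 0.28), Mrps18b, with 250 and 228 (-0.03, -0.29 to 0.24), and Mrpl19, with 366 and 335 (-0.02, -0.24 to 0.19). The other 2 negative genes had few reads. Mrps33 had 48 in WT and 40 in KO, and Mrps2 had 27 and 25.

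In the small subunit, Mrps24 had 242 reads in WT and 371 in KO (0.72, 0.48 to 0.96), and Mrps11 had 190 and 274 (0.63, 0.36 to 0.91). Both are counterparts of bacterial proteins that touch the mRNA path or the platform. Mrps12, whose counterpart forms part of the decoding centre, had 170 and 218 reads (0.46, 0.17 to 0.76). Of proteins particular to mitochondria, Mrps22 had 140 reads in WT and 200 in KO (0.62, 0.30 to 0.94), and Mrps26 had 454 and 637 (0.59, 0.42 to 0.77). Mrps34 had 350 and 391 reads (0.26, 0.05 to 0.48) and Mrps27, a pentatricopeptide repeat protein, 201 and 232 (0.31, 0.03 to 0.59). The last 2 did not pass the limits.

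The S18 family, 3 paralogs of a single bacterial protein, differed among themselves. Mrps18c had 253 reads in WT and 363 in KO (0.62, 0.39 to 0.86). Mrps18b had 250 and 228 reads (-0.03, -0.29 to 0.24), and Mrps18a 233 and 235 (0.12, -0.15 to 0.38). The interval of Mrps18c lay above that of both others, while the intervals of Mrps18a and Mrps18b overlapped. After the RefSeq length correction Mrps18c was at 0.31, just under the 25% limit, which is 0.32 on the log2 scale, and it was not called after the GENCODE correction either. The proteins do not share a place, as those of Mrps18b and Mrps18c sit in the small subunit and that of Mrps18a in the large one.

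Mrps36 had the largest change of all 76 and is the one whose protein is not now counted as ribosomal, being a subunit of the 2-oxoglutarate dehydrogenase complex of the citric acid cycle. It had 27 reads in WT and 49 in KO (0.95, 0.26 to 1.70), under the 50 reads asked above. RefSeq lists 3 pseudogenes of Mrps36, and the counts are of uniquely assigned reads, so its reads may be split or lost between copies. It passed the 25% limit as counted (adjusted p = 0.0151 by the exact binomial test) but not after the RefSeq length correction, where it was at 0.66.

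Levels were compared between genes as RPKM, the reads of a gene scaled to the library total and to the length of its longest curated mRNA, a scale that depends on the isoform chosen. The members had a median of 33.3 RPKM in WT and 43.2 in KO, and all tested genes 9.85 and 9.17. Mrpl52 was the highest, at 228 RPKM in WT and 304 in KO, and Mrps21 came next in both libraries at 149 and 223. Mrps6, at 103 and 109, followed them in WT, but in KO Mrpl18 at 131 and Mrps18c at 117 lay above it. The lowest was Mrpl48, at 0.77 RPKM in WT and 0.79 in KO from 22 and 21 reads, and it too has a pseudogene in RefSeq. Mrps2 had 1.95 and 1.94 RPKM, and Mrps10, with 21 and 22 reads, had 2.84 and 3.20. The order of the 76 genes was much the same in both libraries, with a Spearman rho of 0.97 between them. The log2 fold change had a rho of 0.09 with the WT level over the members. Both are descriptions over genes of the same 2 libraries.

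**Figure D3:**
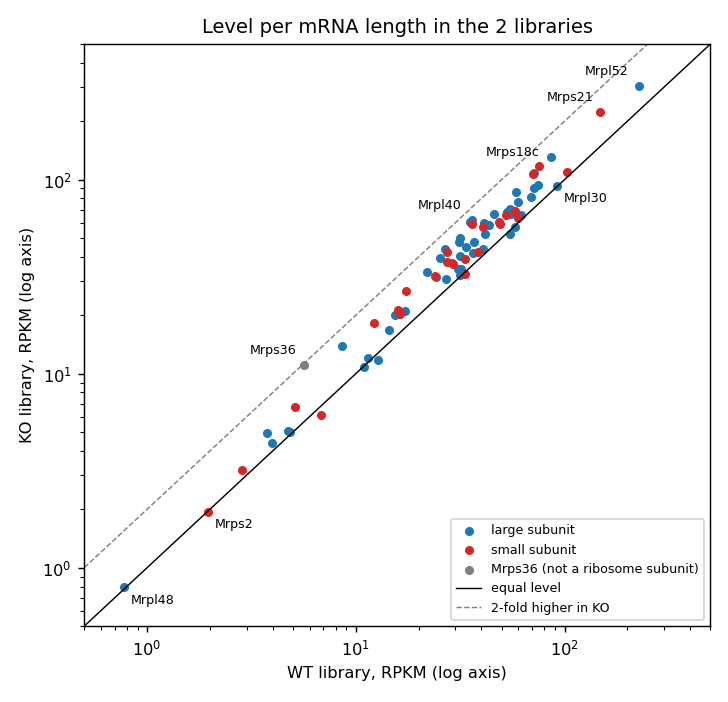
Level of each member in the WT library (x) and the KO library (y), in RPKM on log axes, with blue for the large subunit, red for the small subunit and grey for Mrps36. The solid line is an equal level and the dashed line 2-fold higher in KO. The points run from Mrpl48 at 0.77 RPKM to Mrpl52 at 228 RPKM in WT, with most between the lines.

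The remaining proteins of the mitochondrial ribosome carry other symbols, and 7 of them were tested. Of these, 3 (42.9%) were called higher at the 25% limit and 0 lower, beside 15.7% and 18.2% of all tested genes. Their median was 0.43. Ict1, a peptidyl-tRNA hydrolase built into the large subunit, had 213 reads in WT and 291 in KO (0.55, 0.30 to 0.82). Mrp63 had 336 and 426 reads (0.45, 0.24 to 0.66) and Aurkaip1, of the small subunit, 349 and 440 (0.44, 0.23 to 0.65). Dap3, a GTP-binding protein of the small subunit, had 103 and 129 (0.43, 0.04 to 0.82) and did not pass. Ptcd3, also of the small subunit, had 490 reads in WT and 419 in KO (-0.12, -0.31 to 0.07). After the RefSeq length correction Dap3 was called higher, at 0.65, beside Ict1 and Mrp63, and Aurkaip1 was no longer called. Of all tested genes, 13.5% were then called higher and 13.2% lower.

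Of 25 tested genes for assembly and rRNA modification, 4 (16%) were called higher and 2 (8%) lower, with a median of -0.02, where 15.7% and 18.2% of all tested genes were called. Their difference from the members was not tested. Among those called lower was Ddx28, an RNA helicase of the mitochondrial RNA granule, with 491 reads in WT and 325 in KO (-0.49, -0.70 to -0.29). Dhx30, another helicase of the granule, had 64 and 35 (-0.76, -1.40 to -0.15). Among those called higher, Malsu1, which binds the large subunit, had 152 and 199 (0.49, 0.18 to 0.81). The others called higher were Mtg1, Rbfa and Rpusd3. None of these 4 was called after the RefSeq length correction, and neither was Dhx30, while Ddx28 was called lower at -0.64. Nsun4 was then the assembly gene called higher, and Mterfd1 was called lower beside Ddx28. With this correction 13.5% of all tested genes were called higher and 13.2% lower. Of 16 tested genes of mitochondrial translation, taken as translation factors and partners of the ribosome, 5 (31.2%) were called higher and 1 lower. Their median was 0.10. The summed reads of this list gave a log2 fold change of 0.28 (0.22 to 0.34), in the direction of the members. Most of that rise came from Oxa1l and from Letm1, which had 735 reads in WT and 865 in KO. Oxa1l, the insertase that receives new peptides from the ribosome, had 668 reads in WT and 1033 in KO (0.73, 0.59 to 0.88). Mtrf1, a release factor, had 10 and 24 reads (1.33, 0.25 to 2.60) and was the gene of this group that passed the 2-fold limit, as counted but not after the RefSeq length correction. After that correction 3 of these 16 genes were called higher, Oxa1l at 0.68, Letm1 at 0.61 and Gfm1 at 0.39, and 0 lower. The shares of all tested genes were again 13.5% and 13.2%. The elongation factor gene Tufm had 59 and 67 reads (0.29, -0.24 to 0.82), and Lrpprc, which stabilises mitochondrial mRNA, had 556 and 503 (-0.04, -0.22 to 0.14).

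Of 15 tested genes for transcription and upkeep of mitochondrial DNA, 0 were called as counted at the 25% limit in either direction. The exact binomial test called 15.7% of all tested genes higher and 18.2% lower. The median of the 15 was 0.01. Tfam, which packs mitochondrial DNA, had 488 reads in WT and 525 in KO (0.21, 0.03 to 0.39). The mitochondrial RNA polymerase gene Polrmt had 461 and 520 (0.28, 0.09 to 0.46). After the RefSeq length correction 3 of the 15 were called higher, Polrmt at 0.40, the DNA polymerase gene Polg at 0.36 and Tfam at 0.35, and 2 after the GENCODE correction. Of all tested genes, 13.5% were called higher with the RefSeq and 14.5% with the GENCODE correction, and 13.2% and 13.4% lower. Of 9 nuclear regulators of mitochondrial genes, 0 were called higher and 2 lower as counted, with a median of -0.15. Their median mRNA was long, 5250 bases, and the RefSeq length correction turned the median to 0.12, with 7 of 9 positive, 1 called higher (Ppargc1b) and the same 2 lower. Pprc1, a coactivator of the PGC-1 family, had 1471 reads in WT and 816 in KO (-0.75, -0.87 to -0.62). Gabpb1, a subunit of the ETS factor GABP, had 24 and 8 (-1.42, -2.84 to -0.28) and passed the 2-fold limit, while the DNA-binding subunit gene Gabpa had 621 and 486 (-0.25, -0.42 to -0.08). As counted, Nrf1, from 12 and 10 reads, and Yy1, from 1193 and 1074, had negative values with intervals that included 0. The RefSeq length correction turned these to 0.12 for Nrf1 and 0.28 for Yy1 and moved Gabpa to 0.01, and it left none of the 3 called.

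A pair of larger groups served for comparison. Of 77 tested genes of the respiratory chain and ATP synthase, 48 (62.3%) were called higher and 2 lower as counted. The shares of all tested genes were 15.7% and 18.2%. The median of the 77 was 0.40 as counted and 0.12 after the RefSeq length correction. The members stood at 0.34 and 0.14 on the same scales. With the correction 12 of the 77 were called higher and 3 lower, beside 13.5% and 13.2% of all tested genes. Of 79 tested cytosolic ribosomal protein genes, 4 were called higher and 4 lower as counted, and 0 higher and 41 lower after the correction. Their median was -0.04 as counted and -0.33 after the correction, although their median mRNA, 725 bases, is shorter still. Many cytosolic ribosomal protein genes have processed pseudogenes, which uniquely assigned reads can lose. The difference between the groups was not tested.

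**Figure D4:**
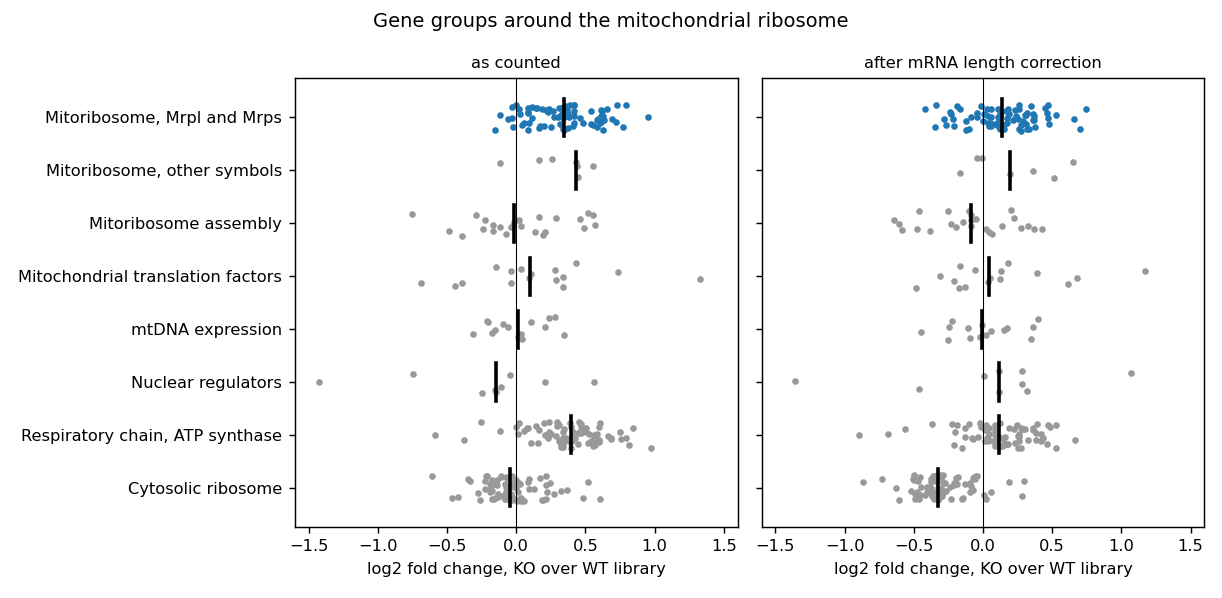
Log2 fold change in the KO over the WT library for the members (blue) and for 7 comparison groups (grey), each point a tested gene and each black bar the group's median, as counted (left) and after the RefSeq mRNA length correction (right). The members' median is 0.34 on the left and 0.14 on the right, and that of the cytosolic ribosome is -0.04 and -0.33.

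Some of these genes share a promoter region with a neighbour on the other strand. RefSeq placed the start of another protein-coding gene within 1000 bases and pointing away in 21 of the 76, and 19 of the neighbours were tested. Of the 19, as counted, 7 were called higher at the 25% limit and 2 lower, beside the same 15.7% and 18.2% of all tested genes. Their median was 0.28. Mrpl46 and Mrps11 are each other's neighbour, with starts 42 bases apart, and count as 2 of the 19. Mrpl46, of the large subunit, had 174 reads in WT and 250 in KO (0.63, 0.34 to 0.91), and Mrps11, given above, was also at 0.63. The stretch between both starts is shown because the pair moved alike. It is chr7:78783070-78783150 of GRCm38, plus strand, from RefSeq, and the capitals mark the first transcribed base of Mrpl46, which is read to the left, and of Mrps11, which is read to the right.
Mrpl46-Mrps11: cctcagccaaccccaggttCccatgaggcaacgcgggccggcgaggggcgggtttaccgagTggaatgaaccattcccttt

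Other neighbours went with their member or apart from it, in values as counted. A difference in mRNA length between a member and its neighbour was not taken into account. Ncapd2, a condensin subunit gene 100 bases from Mrpl51, had 3457 reads in WT and 4851 in KO (0.59, 0.53 to 0.66), and Mrpl51 had 290 and 350 (0.38, 0.15 to 0.61). Abhd8 had 807 and 1023 reads (0.45, 0.31 to 0.58), and its neighbour Mrpl34 had 305 and 433 (0.61, 0.40 to 0.83). Hira, a histone chaperone gene whose start lies 113 bases from that of Mrpl40, had 948 reads in WT and 859 in KO (-0.04, -0.17 to 0.10), an interval that lies below that of Mrpl40. Helq, a helicase gene 98 bases from Mrps18c, had 179 and 118 (-0.49, -0.84 to -0.15), opposite in sign to Mrps18c. Eme2, 33 bases from Mrps34, had 88 and 45 (-0.86, -1.41 to -0.33), while Mrps34 was at 0.26. Fau, a cytosolic ribosomal protein gene 192 bases from Mrpl49, had 3183 and 2427 reads (-0.29, -0.36 to -0.21), and Mrpl49 had 311 and 329 (0.19, -0.04 to 0.41), so that their intervals did not overlap, although neither was called at the 25% limit.

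**Figure D5:**
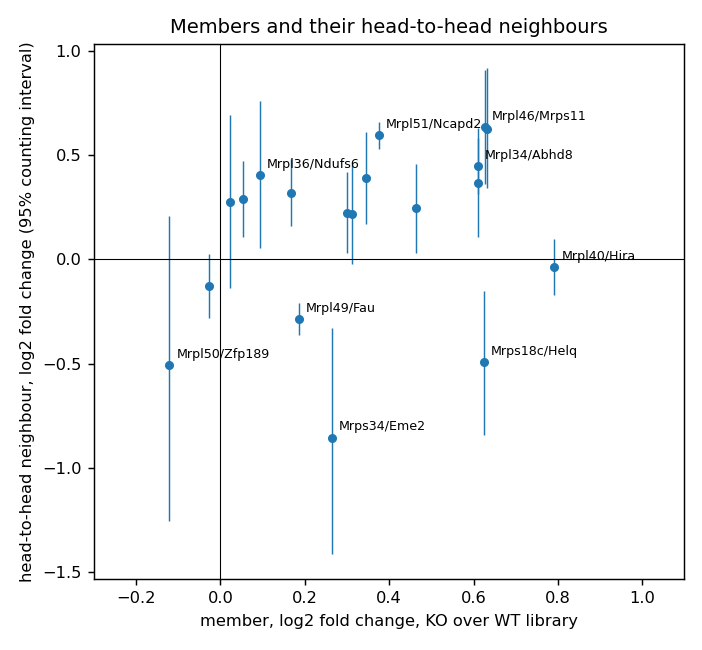
Log2 fold change of each member (x) and of its head-to-head neighbour (y) in the KO over the WT library, for the 19 neighbours tested. Values are as counted, with no length correction, and bars are 95% counting intervals of the neighbour. Most points lie right of and above 0, and Mrpl40 with Hira, Mrpl49 with Fau, Mrps18c with Helq and Mrps34 with Eme2 lie right of 0 but below it, at -0.04, -0.29, -0.49 and -0.86 for the neighbour.

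Promoters of the members were searched for the core letters of factors known to act on mitochondrial genes. RefSeq gave 73 promoters of 67 members, each 250 bases before to 50 after a start. The motifs, on either strand, were GCGCATGCG for NRF1, CCGGAAG for ETS factors such as GABP, AAGATGGCG for YY1 and CACGTG, the E-box that MYC family proteins bind. No match of one motif overlapped a match of another in these promoters. The ETS letters were in 32.9% of the members' promoters, 18.8% of the 10765 promoters of tested genes and 8.86% of all 32851. The NRF1 letters were in 9.59%, 3.80% and 1.75%, the YY1 letters in 11.0%, 3.34% and 1.40%, and the E-box in 9.59%, 10.4% and 7.15%. At least 1 of the 4 was in 52.1%, 32.0% and 17.3%. Among the members with a promoter, the ETS letters were found in 14 of 34 genes called higher and in 10 of 33 not called, and the YY1 letters in 4 of each. The NRF1 letters were in 2 of the 34 and 5 of the 33, and the E-box in 4 and 1. A match is a description of letters and not of binding.

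Single promoters showed different letters beside different changes. The following stretches are from RefSeq on GRCm38, 5′ to 3′ on the strand of the gene, each including the first 20 transcribed bases, with motif matches in capitals. The S18 paralogs are shown from 250 bases before the start, since they differed in their change. Mrps18a, at chr17:46110754-46111023 on the plus strand, holds the ETS and YY1 letters. Mrps18b, at chr17:35916421-35916690 on the minus strand, holds those of NRF1, and the ETS letters lie past the stretch shown. Mrps18c, at chr5:100798509-100798778 on the plus strand, holds an E-box 1 base from the ETS letters on the other strand.
Mrps18a: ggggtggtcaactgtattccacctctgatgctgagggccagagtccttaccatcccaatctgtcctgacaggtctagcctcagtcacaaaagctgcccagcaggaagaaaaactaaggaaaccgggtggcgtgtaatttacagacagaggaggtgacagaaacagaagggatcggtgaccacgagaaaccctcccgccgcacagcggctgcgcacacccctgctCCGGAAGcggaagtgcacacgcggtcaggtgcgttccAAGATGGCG
Mrps18b: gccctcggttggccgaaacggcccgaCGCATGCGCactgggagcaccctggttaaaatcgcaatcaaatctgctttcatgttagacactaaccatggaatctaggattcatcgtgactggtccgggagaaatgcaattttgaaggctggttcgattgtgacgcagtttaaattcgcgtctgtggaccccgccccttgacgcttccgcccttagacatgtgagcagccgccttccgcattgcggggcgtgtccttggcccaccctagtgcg
Mrps18c: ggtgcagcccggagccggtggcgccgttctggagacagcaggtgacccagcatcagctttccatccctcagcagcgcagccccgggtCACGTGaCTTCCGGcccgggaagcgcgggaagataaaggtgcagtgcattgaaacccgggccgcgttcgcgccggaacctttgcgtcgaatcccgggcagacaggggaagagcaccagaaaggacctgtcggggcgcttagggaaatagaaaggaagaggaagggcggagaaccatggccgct

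3 more genes are shown from 80 bases before the start, as examples of a single kind of match near it. Mrpl53, with the second largest change among genes of at least 50 reads, is at chr6:83109028-83109127 on the plus strand and holds the ETS letters on both strands. Mrpl20, with the third, is at chr4:155802798-155802897 on the plus strand and holds an E-box. Mrpl9, with the most reads and a smaller change, is at chr3:94443256-94443355 on the plus strand, where a palindrome of the NRF1 letters matches on both strands.
Mrpl53: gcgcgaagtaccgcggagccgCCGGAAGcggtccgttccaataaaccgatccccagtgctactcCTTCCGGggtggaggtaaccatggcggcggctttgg
Mrpl20: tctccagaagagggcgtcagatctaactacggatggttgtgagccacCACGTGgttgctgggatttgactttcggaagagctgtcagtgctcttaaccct
Mrpl9: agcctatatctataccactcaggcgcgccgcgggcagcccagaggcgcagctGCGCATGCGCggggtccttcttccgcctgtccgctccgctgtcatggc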

How the data were processed

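The mRNA of cultured Th17 cells was sequenced, with 1 WT and 1 KO library. According to the study's methods, reads were mapped to mm10 with SOAP2, and the submitters' processing notes also list HTSeq, Bowtie and bcl2fastq with no role given. The authors deposited, per gene, the raw count of reads assigned to it uniquely, not normalized. The counting annotation and its use of strand are not given in the sources used here, and genes without reads are not listed. The other samples of the series were not used here.

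Counts were scaled to the library totals, 6650066 reads in WT and 6185108 in KO, and log2 fold changes had 0.5 added to each count. A gene needed 10 or more reads in both libraries together, which left 10881. Each was given an exact binomial test, two-sided, against the KO share of all reads in SciPy 1.17.1, and p-values were adjusted by Benjamini-Hochberg over the 10881. With 1 library per genotype the quasi-likelihood test of edgeR could not be fitted. Calls were made under an adjusted p of 0.05 with a 2-fold change, or with a higher level at least 25% above the lower one. At these depths 3 reads are 0.451 CPM in WT and 0.485 CPM in KO. Loess curves (span 0.3) took off trends with length or GC content, in statsmodels 0.14.6. The test and the correction were tested on simulated data. Of 13704 gene names, 12841 matched a symbol of GRCm38 RefSeq and 804 a unique older symbol.

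Alternatives were TMM factors (edgeR 4.0.16), DESeq2 1.42.0 size factors, upper-quartile scaling, other read filters, 5 added to each count, an adjusted p under 0.001, the exact test of edgeR with a variation between replicates set at 0.1, 0.2 or 0.4, and corrections for GC content and GENCODE M21 transcript length. The correction for RefSeq mRNA length was chosen after seeing the data. Members and lists were chosen with earlier results of these data known. Genes named were the 8 largest rises and falls among members with at least 50 reads in the higher library, the 5 with the most reads, the S18 paralogs, Mrps30, Mrps36, Mrpl12, members called at 2-fold and their head-to-head neighbours. Others were named after their values were seen, to show each role or the lowest and highest levels.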

Additional observations from a re-analysis of the deposited data

How the results depend on the processing

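No paired analysis was possible because there is 1 library per genotype. Alternative scalings were DESeq2 size factors, TMM factors and upper-quartile scaling. Under these, 5 added to each count or either other read filter, the counts of members called stayed within 1.5 times those reported. The median of the members ran from 0.34 to 0.36 under them, a description, since members are not replicates. The summed fold was computed for the scalings alone, at 0.36, 0.36 and 0.35 on the log2 scale. These lay within its counting interval of 0.32 to 0.37. The 40 members called higher at the 25% limit became 22 with the GENCODE transcript length correction, 11 with the RefSeq mRNA length correction, 25 at an adjusted p under 0.001, and 6, 0 and 0 with the exact test of edgeR at a set variation between replicates of 0.1, 0.2 and 0.4. In those last 3 tests 4.47%, 0.597% and 0.0643% of all tested genes were called higher. The count called lower at the 25% limit went from 0 to 1 with the RefSeq correction, and the count called higher at 2-fold from 0 to 1 with the GC content correction. The median of 0.34 moved to 0.20 with the GENCODE and 0.14 with the RefSeq length correction. Of 299 values for 23 named members under the alternatives, 235 kept their sign and their side of the 25% limit, 55 lost the call, 2 gained it and 7 changed sign, none of the 7 called before or after. Mrps18a turned to -0.02 (GENCODE length) and -0.17 (RefSeq length). Mrpl19 turned to 0.19 (GENCODE length), 0.07 (GC content) and 0.24 (RefSeq length). Mrpl33 turned to 0.06 and Mrpl50 to 0.01 with the GC content correction. Intervals widen as reads fall, and that of Mrps2, with 27 and 25 reads, ran from -0.85 to 0.83 on the log2 scale.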
